A study of Rattus norvegicus with 12 samples.

Results

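The messenger RNA carried by exosomes of AS, a rat pancreatic carcinoma line, was set against that of the AS cells that shed them. The comparison took 3 of the 12 arrays of the study by their labels: 1 array of AS cells and 2 arrays of AS exosomes, called exosome array 1 and exosome array 2 by the replicate numbers in the labels. AS is the parental line, of the BDX rat strain, without the tetraspanin Tspan8. Its cells were grown in RPMI medium with 10% fetal calf serum and 2 mM glutamine, and exosomes were collected from serum-free medium after 36 h of starvation. Whether the cells on the AS cell array were also starved is not stated, so starvation and the step from cell to vesicle cannot be told apart. Total RNA was extracted with a column kit and read on 1-colour Illumina rat BeadChips. Nothing in the labels says that the 2 exosome samples are separate preparations. Every p-value rests on the spread of the duplicate exosome arrays of AS and of the line AS-Tspan8 together. That spread may be technical only, and AS cells have a single array. The closest comparison, used where a difference is tested, is that of AS-Tspan8 cells (1 array) with their exosomes (2 arrays), where the line carries Tspan8.

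Exosomes are small vesicles that form as inward buds of the endosome membrane and are released when the endosome fuses with the cell surface. The ESCRT complexes, tetraspanins and syntenin take part in their formation. They enclose cytosol, and with it messenger RNA that can be translated after uptake by another cell. Pieces of messenger RNA and other RNA are also found in them, so a probe signal shows that the probed stretch was present, not that a whole transcript was. Because RNA of a vesicle preparation and of cells is labelled and read separately, fewer copies per vesicle and fewer vesicles holding a transcript cannot be told apart.

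The summed signal of all probes was 13714493 on the AS cell array, 2696800 on exosome array 1 and 2924133 on exosome array 2, while the median probe signal was similar at 78.6, 80.5 and 75.4. A probe was called detected at a detection p-value under 0.01, the scanner software's comparison with negative control probes. That held for 9269 of 22523 probes in AS cells, for 2535 on exosome array 1 and for 3604 on exosome array 2. The 2 exosome arrays were not equally like the cells. Over the 9434 tested features (1 probe per named gene, and unnamed probes by themselves), the log2 signal of exosome array 2 correlated with AS cells at r = 0.604 and that of exosome array 1 at r = 0.231. The 2 exosome arrays correlated with each other at r = 0.843, below the r = 0.953 and r = 0.917 of exosome array 1 with the 2 AS-Tspan8 exosome arrays. These correlations run across features that share arrays and are descriptions only. Values are therefore given for each array, and results that rest on the pair are given also for each exosome array.

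The labels were checked against marker genes. Tspan8 was not detected on any of the 3 AS arrays (signals of 75.1 in AS cells, 96.2 and 83.6 in exosomes) and read 2036 in AS-Tspan8 cells. Of 18 epithelial and pancreatic tumour markers on the array, 6 were detected in AS cells, beside 9130 of all 22067 features. Among the 6 were the keratin Krt19 (9554) and the secreted lipocalin Lcn2 (13177). The epithelial genes Epcam (62.5), Cdh1 (70.3), Cldn3 (67.6) and Cldn4 (73.2) were not detected. These markers therefore do not by themselves establish an epithelial identity. Markers of other cells were mostly below detection in AS cells: 2 of 23 for exocrine and endocrine pancreas, 2 of 13 for fibroblasts, 4 of 15 for endothelium, 3 of 15 for leukocytes, 2 of 11 for erythroid cells and platelets and 1 of 8 for smooth muscle.

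Exosomes held a detectable signal for a minority of the genes of their source cells. Of 9130 features detected in AS cells, 1679 (18.4%) were detected on both exosome arrays, 1875 (20.5%) on array 1 and 3245 (35.5%) on array 2. On neither array were 5689 detected. The share depended on how bright a feature was in the cells. Of the 229 features with a signal over 10000 in AS cells, 98.7% were detected on exosome array 1 and 100% on exosome array 2. Between 3000 and 10000, where there were 729 features, the shares were 64.2% and 97.9%. Between 1000 and 3000 they were 20.6% and 76.3% of 1604 features, and between 300 and 1000 they were 12.1% and 24.4% of 2472. The arrays thus differed most for features of middle brightness, where array 2 detected more.

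**Figure D1:**
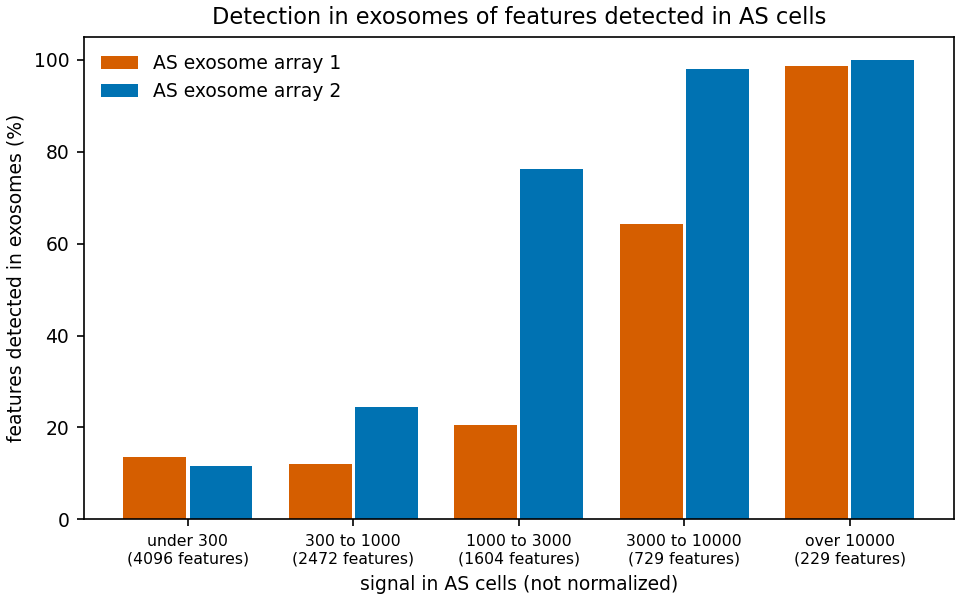
Percentage of the features detected in AS cells that were also detected (detection p under 0.01) on exosome array 1 (orange bars) and exosome array 2 (blue bars), by signal in AS cells before normalization. Of features over 10000 nearly all were detected on both arrays (98.7% and 100%), and between 1000 and 3000 the arrays differed most (20.6% and 76.3%).

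Signals of the brightest cell transcripts were a few percent of their cell signal in exosomes. Among features over 10000 in AS cells, the median ratio of exosome to cell signal was 0.0244 on array 1 and 0.0867 on array 2. For features of 300 to 1000 it was 0.169 and 0.174, but there most exosome signals lay at the array background, which sets a floor under the ratio. Before normalization 8219 of the 9434 tested features (87.1%) were dimmer on both exosome arrays than in AS cells and 1002 (10.6%) were brighter on both. A signal is a probe's own brightness, so the groups of genes below are described by detection within ranges of cell signal and by the ratio of the same probe between arrays.

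**Figure D2:**
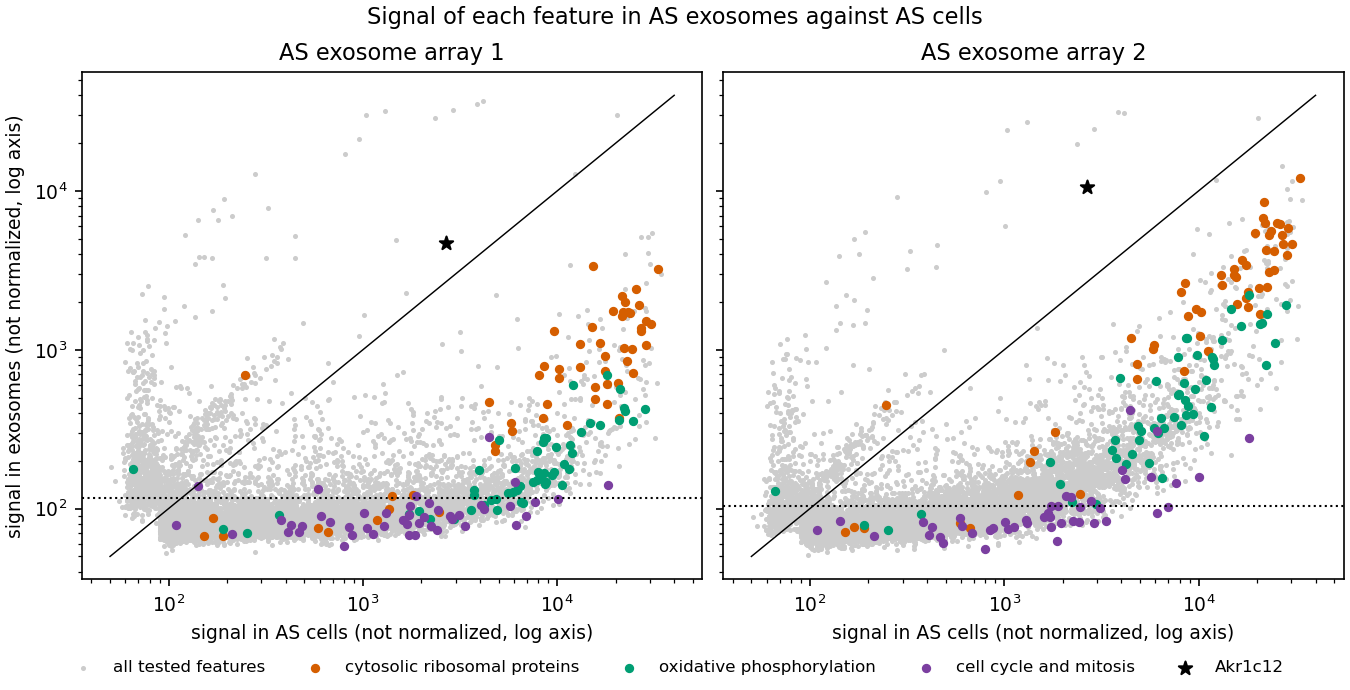
Signal of each tested feature before normalization on exosome array 1 (left) and exosome array 2 (right) against its signal in AS cells, on log axes, with 3 gene lists and Akr1c12 in colour. The solid line marks equal signals and the dotted line the lowest detected signal on that array (116.1 and 103.9). Ribosomal protein genes lie along the upper edge of the bright features, and most cell cycle genes lie at or under the dotted line.

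Transcripts for proteins of the cytosolic ribosome with a bright cell signal were nearly all detected in exosomes. Of 61 such genes on the array 57 were detected in AS cells, 48 on exosome array 1 and 51 on exosome array 2. With a cell signal of at least 1000 there were 50, of which 47 were detected on array 1 and 50 on array 2. All 2562 features of that brightness reached 40% and 84.6%, but the 50 were brighter, with a median cell signal of 17118 against 2274. These shares are thus not of like brightness. Rplp0, which encodes the stalk protein P0 of the large subunit, read 33206 in AS cells, 3208 on exosome array 1 and 12065 on exosome array 2. Rpl9, of the large subunit, read 25376 in cells and 2411 and 6269 in exosomes, and Rpl29 read 26232 in cells and 1906 and 6237 in exosomes. For these genes both exosome arrays were below the cells and array 2 was the brighter of the pair, as in 53 of the 57 genes of the list detected in cells. The median ratio to cells over the 50 genes was 0.0594 on array 1 and 0.178 on array 2, beside 0.0491 and 0.0718 over all features of at least 1000. Between 3000 and 10000, where all features reached 64.2% on both arrays, 10 of 10 ribosomal genes were detected on both. The 35 genes over 10000 were all detected on both arrays too, beside 98.7% of all features over 10000. Between 1000 and 3000, 2 of 5 were detected on array 1 and 5 on array 2, beside 20.6% and 76.3% of all features. Below 300 only 1 of 5 was detected on both.

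Most genes of this list carry a run of pyrimidines (C and T) near the annotated start. A run that begins at the start itself is the motif known from terminal oligopyrimidine messenger RNAs, whose translation is set by growth signals. In RefSeq start windows (build GRCr8, 20 bases on each side of the annotated start, read on the gene's strand), 36 of 46 ribosomal genes with a window (78.3%) held a run of at least 8 consecutive C or T, against 15.9% of all 27457 windows. The count takes a run anywhere in the window. The share was 47.1% of 17 translation factor genes and 8.11% of 37 cell cycle genes. The runs of Rpl21 and Rpl7a begin at -20 relative to the annotated start and, with 14 bases each, end before it. The longest run of Rpl3 begins at 0 and has 5 bases. The windows of 3 ribosomal genes whose run spans the annotated start are shown. Their runs begin at -12 (Rpl29), -4 (Rpl9) and -3 (Rplp0), and none of them at the start itself. The windows of the cell cycle kinase gene Cdk1 and of Akr1c12, both described further on, follow. The longest run of C or T is in capitals.
Rpl29 (chr8:115947623-115947663, + strand): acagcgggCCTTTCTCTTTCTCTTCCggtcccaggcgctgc
Rpl9 (chr14:43247570-43247610, + strand): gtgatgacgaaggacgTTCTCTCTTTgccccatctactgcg
Rplp0 (chr12:46718370-46718410, - strand): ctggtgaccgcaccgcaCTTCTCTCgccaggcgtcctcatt
Cdk1 (chr20:19265273-19265313, + strand): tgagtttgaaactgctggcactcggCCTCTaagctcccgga
Akr1c12 (chr17:70971392-70971432, - strand): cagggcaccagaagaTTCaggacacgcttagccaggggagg
Detection with and without a run was compared within ranges of cell signal. Between 3000 and 10000, 67.5% of 77 named genes with a run and 59.4% of 453 without one were detected on both exosome arrays. Without the ribosomal genes the first share was 63.8% of 69, and over 10000 the shares with and without a run were 97.7% of 44 and 97.8% of 89. A match is a description of letters in this window, and a window with no run says nothing of the factors that bind there.

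Translation factors, which start and extend the protein chain on the ribosome, follow. Of 17 such genes with a cell signal of at least 1000, 12 were detected on exosome array 1 and 16 on array 2. All features of that brightness reached 40% and 84.6%, with a median cell signal of 2274 against 6608 for the 17. All 7 between 3000 and 10000 and all 5 over 10000 were detected on both arrays, as were the ribosomal genes of those ranges. Of all features there, 64.2% and 98.7% were. Between 1000 and 3000, 0 of 5 were detected on array 1 and 4 on array 2, beside 20.6% and 76.3% of all features. Eef1a1, the elongation factor that brings aminoacyl-tRNA to the ribosome, read 29602 in cells, 1432 on array 1 and 5483 on array 2. Tpt1, a tumour protein whose messenger RNA also starts with a pyrimidine tract, read 21090 in cells and 1044 and 6105 in exosomes. Of 37 genes for the mitochondrial ribosome with a cell signal of at least 1000, 9 were detected on array 1 and 35 on array 2. Of these 26 lay between 1000 and 3000, where 20.6% and 76.3% of all features were detected, and 2 and 24 of the 26 were.

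Nuclear genes of oxidative phosphorylation, which makes ATP in mitochondria, were all detected on exosome array 2 and mostly on array 1 where the cell signal was at least 1000, with lower median ratios to cells than ribosomal genes. Of 50 with a cell signal of at least 1000, 39 were detected on exosome array 1 and 50 on array 2, beside 40% and 84.6% of all features of that brightness. Their median cell signal was 8271, against 2274 for those features. Between 3000 and 10000, 23 of 30 were detected on both arrays, beside 64.2% of all features. The median ratios to cells were 0.0216 and 0.063, below the 0.0491 and 0.0718 of all features of at least 1000, which are dimmer in cells. Features between 3000 and 10000 had medians of 0.0278 and 0.0506, and those over 10000 had 0.0244 and 0.0867. Beside these the list was slightly lower on array 1 and between the medians on array 2. Cox6a1, a subunit of cytochrome c oxidase, read 28284 in cells, 421 on array 1 and 1904 on array 2. Atp5f1a, the alpha subunit of ATP synthase, read 22121 in cells and 430.3 and 798.9 in exosomes. In glycolysis, 8 of 12 genes with a cell signal of at least 1000 were detected on array 1 and 11 on array 2. Their median cell signal was 7692, and between 3000 and 10000, 2 of 5 were detected on both arrays. The triosephosphate isomerase gene Tpi1 read 27804 in cells and 857.6 and 3704 in exosomes, Gapdh read 10191 in cells and 541.6 and 1679 in exosomes, and Ldha read 17525 in cells and 218 and 711.2 in exosomes. All 3 were dimmer in exosomes, with the ratio on array 2 at 0.133 for Tpi1, 0.165 for Gapdh and 0.0406 for Ldha.

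Genes of protein quality control and of the cytoskeleton were set beside the 40% and 84.6% of all features of at least 1000. Of 31 proteasome genes with a cell signal of at least 1000, 21 were detected on exosome array 1 and 30 on array 2, and of 18 heat shock protein and chaperone genes 13 and 18. Between 3000 and 10000, where 64.2% of all features were detected on array 1, 15 of 20 proteasome genes and 6 of 8 cytoskeleton genes were. Hspa5, the main chaperone of the endoplasmic reticulum, read 15511 in cells, 196.9 on array 1 and 368.2 on array 2. Of 22 actin and tubulin cytoskeleton genes 13 and 21 were detected. Actb, beta-actin, read 26469 in cells, 389.1 on array 1 and 834.9 on array 2, and Tuba1b, an alpha-tubulin, read 29716 in cells and 830.5 and 2044 in exosomes. Of 17 genes for RNA-binding and splicing proteins 10 and 16 were detected, and Hnrnpa2b1, a protein known to bind RNA sorted into exosomes in human cells, read 11643 in cells and 126.2 and 223.2 in exosomes.

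Messenger RNA for proteins that build exosomes or mark their membrane was detected more often on exosome array 2, as all features with a cell signal of at least 1000 were. Of 17 genes of vesicle formation and ESCRT with a cell signal of at least 1000, 7 were detected on exosome array 1 and 17 on array 2, beside 40% and 84.6% of all features of that brightness. Their median ratio to cells was 0.0447 and 0.075, beside 0.0491 and 0.0718 over all of those features. Tsg101, a subunit of ESCRT-I, read 4394 in cells, 97.6 on array 1 (not detected) and 209 on array 2. Sdcbp, which encodes syntenin, read 5665 in cells and 102.3 (not detected) and 224.4 in exosomes, and Chmp5, an ESCRT-III protein, read 3613 in cells and 316.6 and 325.7. On array 1 Chmp5 was detected and the other pair was not. Of 9 tetraspanin genes of that brightness, 2 were detected on array 1 and 7 on array 2. Cd81 read 9517 in cells and 122.9 and 430.4 in exosomes, and Cd63 read 1961 in cells and 117.6 and 184.8 in exosomes, both detected on both arrays. Cd82 read 1030 in cells and 77.4 and 85.5 in exosomes, not detected on either. Of 8 annexin and S100 genes 1 was detected on array 1 and 7 on array 2. Itgb1, the integrin beta-1 chain, read 3885 in cells, 95 on array 1 (not detected) and 109.8 on array 2.

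**Figure D3:**
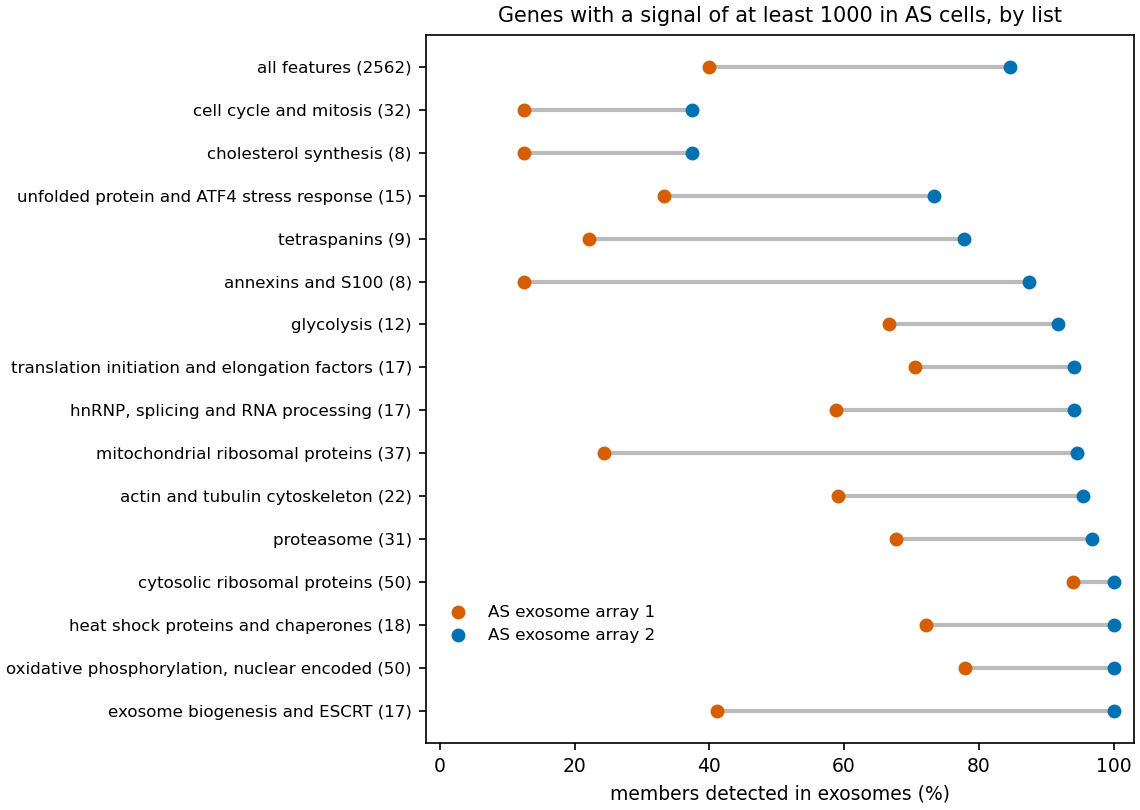
Percentage of the members of each gene list with a signal of at least 1000 in AS cells that were detected on exosome array 1 (orange) and exosome array 2 (blue), for lists with at least 8 such members (number in brackets) and for all features. All features reached 40% and 84.6%, cytosolic ribosomal proteins 94% and 100%, and cell cycle genes and cholesterol synthesis genes each 12.5% and 37.5%. The lists differ in brightness, with a median cell signal of 17118 for cytosolic ribosomal proteins against 2274 for all features.

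Transcripts of cell division were largely undetected in exosomes although many had a high signal in AS cells. Of 32 cell cycle and mitosis genes with a cell signal of at least 1000, 4 were detected on exosome array 1 and 12 on array 2, and 20 on neither, against 387 of 2562 features of that brightness on neither. The gap was present within ranges of cell signal: between 1000 and 3000, 4 of 20 were detected on array 2 beside 76.3% of all features, and between 3000 and 10000, 6 of 10 beside 97.9%. Rrm2, a subunit of ribonucleotide reductase, which makes DNA precursors, read 6943 in cells, 89.6 on array 1 and 102.6 on array 2. Cdk1, the kinase that drives entry into mitosis, read 6119 in cells and 78.4 and 94.2 in exosomes. Neither was detected in exosomes at the limit of 0.01, though on array 2 the detection p-values were 0.0133 for Rrm2 and 0.0291 for Cdk1. A bound was taken for such genes, the normalized cell signal over the lowest detected signal of the exosome arrays after normalization. It put Rrm2 at least 7.35-fold higher in cells and Cdk1 at least 6.38-fold. Mcm2, of the replicative helicase, was at least 3.35-fold higher in cells (3335 against 78.2 and 83). Ccna2, cyclin A2, read 2884 in cells and 85.6 and 80.9 in exosomes, at least 2.87-fold higher in cells, and Bub1, a spindle checkpoint kinase (798.1 in cells, 58.4 and 55.6 in exosomes), was at least 1.01-fold higher.

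Some cell cycle genes were detected. Pcna, the sliding clamp of DNA polymerase, read 18191 in cells, 141.3 on array 1 and 279.2 on array 2. Its ratio to cells was 0.00777 and 0.0153, the lowest on array 1 among the 46 genes of the list detected in cells. Ccnd1, cyclin D1 of the G1 phase, read 4457 in cells and 282.2 and 415 in exosomes. Ccnb2, cyclin B2, read 10075 in cells, 115.6 on array 1 (not detected) and 158 on array 2. All of these genes were dimmer on both exosome arrays than in cells.

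In all, 15 of 958 features with a cell signal of at least 3000 were not detected on exosome array 2, and all 15 were also missing on array 1 and on both AS-Tspan8 exosome arrays. The 13 named ones were Rrm2, Cdk1, Hat1, Mcm2, Knstrn, Canx, Gmnn, Ddost, Prc1, Ggcx, Tm4sf1, Oat and Kifc1, and 4 of them are in the cell cycle list. Outside that list, Knstrn and Kifc1 are known to act on the mitotic spindle, and Gmnn encodes geminin, the inhibitor of replication licensing (3221 in cells, 72.1 and 94.6 in exosomes, at least 3.25-fold higher in cells). Hat1, a histone acetyltransferase of newly made histones, read 3978 in cells and 79.2 and 90.3 in exosomes (at least 4.06-fold higher in cells), and Knstrn read 3289 in cells and 100 and 91.1 in exosomes (at least 3.30-fold). Canx, the membrane-bound chaperone calnexin, read 3229 in cells and 91.1 and 88.4 in exosomes (at least 3.26-fold), and Ddost, a subunit of the oligosaccharyltransferase, read 3212 in cells and 79 and 96.6 in exosomes (at least 3.24-fold). The last pair, with Ggcx, encodes proteins of the membrane of the endoplasmic reticulum.

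Sterol synthesis follows as a list of its own. Of 8 of its genes with a cell signal of at least 1000, all of them under 3000, 1 was detected on exosome array 1 and 3 on array 2, beside 20.6% and 76.3% of all features between 1000 and 3000. Msmo1, a sterol oxidase, read 2606 in cells and 78.5 and 96.3 in exosomes (at least 2.59-fold higher in cells), and Sqle, squalene epoxidase, read 2090 in cells and 80.6 and 97.3 in exosomes (at least 2.06-fold). The member on both arrays was Mvd, an enzyme of the mevalonate pathway, with 2380 in cells and 328.1 and 280.5 in exosomes. Of 15 stress response genes (unfolded protein and ATF4) with a cell signal of at least 1000, 5 were detected on array 1 and 11 on array 2. All features of that brightness reached 40% and 84.6%. Calr, calreticulin, read 16973 in cells and 249.1 and 511.9 in exosomes, and Atf4, a transcription factor of this response, 2316 in cells and 120.4 and 272.9 in exosomes.

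Both ferritin transcripts had a ratio to cells above the median of features over 10000, which was 0.0244 on array 1 and 0.0867 on array 2. Ftl1, the ferritin light chain, read 11308 in AS cells, 1204 on exosome array 1 and 5368 on array 2, ratios of 0.106 and 0.475. Fth1, the heavy chain, read 28673 in cells and 2631 and 10235 in exosomes, ratios of 0.0918 and 0.357. Tfrc, the transferrin receptor, whose protein is a long-known cargo of reticulocyte exosomes, read 1457 in cells and 76.2 and 65.3 in exosomes and was not detected there (at least 1.51-fold higher in cells). Of 6 genes of iron storage and uptake with a cell signal of at least 1000, 4 were detected on array 1 and 5 on array 2. All features of that brightness reached 40% and 84.6%. All 6 immediate early and short-lived genes of that brightness were detected on array 2 and 1 on array 1, beside the same shares. Nfkbia, the inhibitor of NF-kappa-B, read 7191 in cells and 123.6 and 423.5 in exosomes. Of 6 interferon response genes of that brightness 4 and 6 were detected on arrays 1 and 2, again beside 40% and 84.6%. B2m, the light chain of MHC class I, read 28557 in cells and 625.1 and 4368 in exosomes, the last on array 2.

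A smaller set was brighter in exosomes than in cells. Before normalization 634 features were detected on both exosome arrays with signals above that of AS cells on both, and 250 of them (39.4%) had a gene name, beside 71.5% of all tested features. Their median signal was 89.4 in AS cells, 260.6 on array 1 and 158.2 on array 2, and 314 were detected in AS cells. Exosome array 1 exceeded array 2 in 625 of them (98.6%), with a median ratio of array 1 to array 2 of 1.49, while the 1365 other features detected on all 3 arrays had a median of 0.708. Of the 634, 412 (65%) were also brighter on both AS-Tspan8 exosome arrays than in AS-Tspan8 cells. The brighter features and the others were thus ordered oppositely between the exosome arrays, and array 2, the one more like the cells, was the lower for the brighter features.

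**Figure D4:**
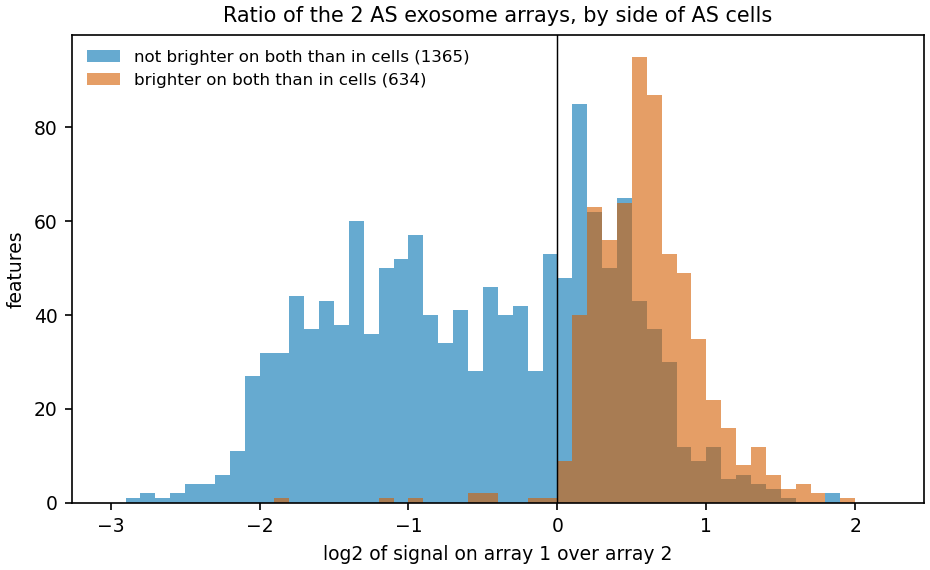
Number of features by the log2 ratio of signal on exosome array 1 to exosome array 2, for 634 features brighter on both exosome arrays than in AS cells (orange) and for 1365 other features detected on all 3 arrays (blue). Most of the first set lie right of 0 (625 of 634), and the second set spreads to both sides, with a median ratio of 0.708.

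Most of these signals did not stand clear of every negative control. A detection p-value of 0, above every negative control, began at a signal of 468.5 on exosome array 1 and 307.7 on array 2, against 170.6 in AS cells, so some negative controls were brighter on the exosome arrays too. Of the 1365 other features detected on all 3 arrays, 140 had a p-value of 0 on both exosome arrays. Of the 634 brighter features 130 had one, a larger share, and 21 of them were named. Akr1c12 and Clec7a were left out of the named ones after the values were seen. The other 19 unrelated genes read 183.8 to 361.2 in AS cells, 476.4 to 830.4 on array 1 and 311.7 to 534.1 on array 2. Their ratio of array 1 to array 2 was between 1.37 and 1.65. A p-value of 0 and exosomes above cells were conditions of the choice, which sets the lower ends on the exosome arrays. The ranges are thus no support for a pattern shared by these 19 genes. Rps24 was among them (247 in cells, 696.6 and 452.3 in exosomes), unlike most genes of the ribosomal list, and so were the olfactory receptor gene Or1aa2 (243.1, 678.7 and 462.7) and the prolactin family gene Prl8a4 (232.6, 658.7 and 431.7). On the AS-Tspan8 exosome arrays the 19 read 284.5 to 555.9. Whether a shared background moves these probes was not tested.

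Akr1c12, an aldo-keto reductase of the family that acts on steroids, was the one named gene with a cell signal over 1000 that was brighter on both exosome arrays. It read 2676 in AS cells, 4718 on exosome array 1 and 10530 on exosome array 2. Both exosome arrays exceeded the cells, and array 2 exceeded array 1, unlike the set of 19 genes. On the log2 scale after quantile normalization the difference was 5.30 ± 1.12 (SE; 2 exosome arrays, 1 cell array), with an adjusted p of 0.0688 by limma, past no threshold. In AS-Tspan8 it read 4361 in cells and 5127 and 535.2 in exosomes, so 1 of those 2 exosome arrays was below the cells. The other 8 features of this kind were probes without a gene name, the brightest of which, ILMN_1369444, read 4135 in cells, 37099 on array 1 and 31020 on array 2. Another, ILMN_1356548, read 1037 in cells and 30237 and 24080 in exosomes. Of the 15 features with a signal of at least 5000 on both exosome arrays, 0 are named in the annotation used.

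Genes detected on both exosome arrays but not in AS cells numbered 320 features, 86 of them named, of 12937 features not detected in cells. Clec7a, the fungal glucan receptor of myeloid cells, read 73.6 in cells, 732.6 on array 1 and 367.2 on array 2, at least 32.5-fold higher in exosomes after normalization. The next were Nefl, a neurofilament chain (62.7 in cells, 516.2 and 208 in exosomes, at least 18.9-fold), Cacng2, a regulator of glutamate receptors (81.8, 493.7 and 214.4, at least 18.8-fold), and Cyp24a1, which degrades vitamin D (69.6, 433.6 and 235, at least 18.2-fold). Col1a2, a collagen chain, followed at 62.9 in cells and 371.9 and 198.6 in exosomes (at least 15-fold), then Efnb3 (at least 14.3-fold), Tfap2d (at least 14.1-fold) and Gabrb1 (at least 13.4-fold). In all 8, exosome array 1 was the brighter, and of the 8 only Clec7a had a detection p-value of 0 on both. The bounds are on the normalized scale, which lifts dim signals of exosome arrays. Of the markers of other cell types, Cela2a (67.1 in cells, 321.3 and 128.3 in exosomes) and Col1a2 were the ones of this kind. Summed over the 13 fibroblast markers on the array, signals were 3261 in cells and 1410 and 1087 in exosomes, and over the 23 exocrine and endocrine markers 1755, 2107 and 1758. Of the 13, 2 were detected on exosome array 1 and 1 on array 2, and of the 23, 1 on each. Undetected probes add their background signal, so these sums do not measure marker content.

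The telomerase RNA Terc, the single noncoding RNA of its list on the array, read 132 in AS cells, 224.7 on exosome array 1 and 206 on exosome array 2. Both exosome arrays were above the cells, and the pair was close. The log2 difference after normalization was 2.99 ± 0.32 (SE), with an adjusted p of 0.0572 by limma. In AS-Tspan8 the order was opposite, 147.6 in cells and 67.4 and 64.1 in exosomes, and the difference between the lines of 3.61 ± 0.45 (SE) had an adjusted p of 0.989.

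**Figure D5:**
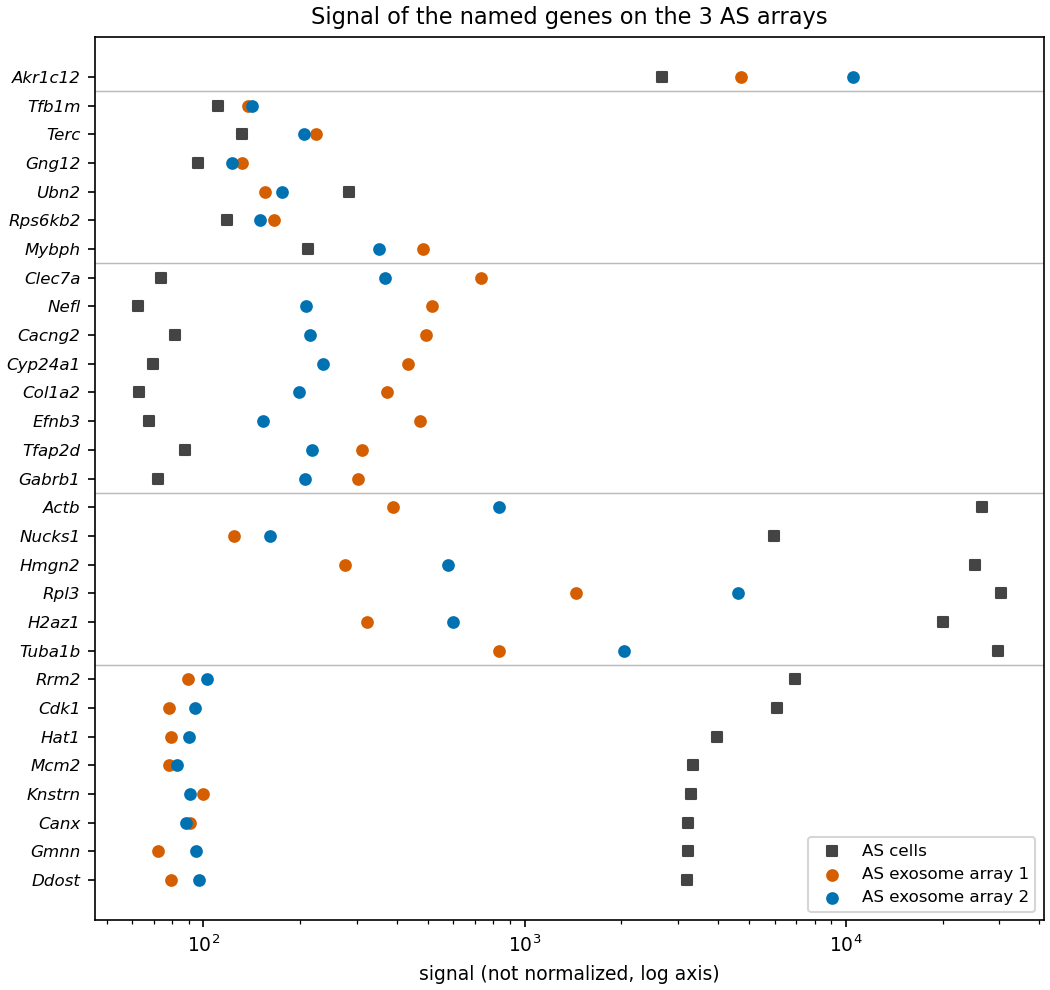
Signal before normalization in AS cells (grey squares) and on exosome arrays 1 (orange) and 2 (blue), on a log axis, for Akr1c12 and, in blocks from top to bottom, genes with exosomes above cells after normalization and lowest p, genes detected in exosomes only, genes with exosomes below cells and lowest p, and genes detected in cells only. Akr1c12 is above its cell signal on both exosome arrays, Rrm2 to Ddost lie near 100 on both, and Ubn2 lies below its cell signal in exosomes although its normalized difference is positive.

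Single features were tested against the spread of the exosome arrays of both lines. Limma, fitted to all 6 tumour cell and exosome arrays with 4 group means and 2 residual degrees of freedom, called 0 of 9434 features higher (0%) and 0 lower (0%) in AS exosomes at an adjusted p under 0.05, and the smallest adjusted p was 0.0572. At an unadjusted p under 0.05, 1057 features (11.2%) lay higher and 2652 (28.1%) lower. After normalization both exosome arrays lay above the cell array for 2197 features (23.3%) and below it for 5925 (62.8%). These shares too hold for the features kept by the filter, which favours those bright in cells. With no filter the median log2 difference was 0.0083 over 22067 features, against -0.70 with it. The number of calls depended on the settings: without scaling between arrays it was 394 higher and 7970 lower, and scaled to the 75th percentile of features detected on all 3 AS arrays it was 4637 higher and 484 lower. Without exosome array 2 the main settings called 1259 higher and 2786 lower, and without exosome array 1 none. The normalized differences below are therefore values and not calls.

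Among named genes detected on all 3 arrays with both exosome arrays below the cells after normalization, Actb had the lowest p, with a log2 difference of -2.91 ± 0.38 (SE). Hmgn2, a nucleosome-binding protein, differed by -3.35 ± 0.45 (25161 in cells, 275.5 and 576.5 in exosomes), and H2az1, a histone variant, by -2.16 ± 0.32 (20093 in cells, 322.6 and 597 in exosomes). Rpl3 differed by -2.57 ± 0.37 (30330 in cells, 1448 and 4617 in exosomes), Tuba1b by -3.12 ± 0.47 and Nucks1, a nuclear DNA-binding protein, by -2.0 ± 0.26 (5984 in cells, 124.6 and 161.6 in exosomes). For all 6 the adjusted p was 0.0572. With both exosome arrays above, the genes of lowest p beside Terc were Tfb1m, Gng12, Ubn2, Rps6kb2 and Mybph, with log2 differences of 1.80 to 3.79 and the same adjusted p. Their signals were low, from 96 to 284.7 in cells. Ubn2 was dimmer in exosomes before normalization (284.7 in cells, 155.2 and 175.8 in exosomes), so its direction is that of the scaling.

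On the normalized scale the median log2 difference of all features was -0.70, and lists are read against it. Cell cycle genes had a median of -2.02, and 43 of the 46 tested had both exosome arrays below the cells. At an unadjusted p under 0.05, 34 of the 46 lay lower and 0 higher. Their median minus that of all features was between -2.50 and -1.15 over the 14 settings in which it could be computed. Cytosolic ribosomal genes had a median of -0.15 over 56 tested, with 6 lower and 2 higher at an unadjusted p under 0.05, and the sign of their median against all features turned in 4 of 16 settings. Glycolysis (-1.52 over 17), heat shock proteins (-1.48 over 21), oxidative phosphorylation (-1.25 over 54), the proteasome (-1.21 over 36) and the cytoskeleton (-1.15 over 35) lay below all features. Of these lists, oxidative phosphorylation turned without exosome array 1. Their median cell signals on the array were 1799 to 7847, against 339.3 over all tested features. No reference of like cell signal was taken, so list and brightness cannot be told apart here. Vesicle formation and ESCRT genes had a median of -0.71 over 35, and immediate early genes one of -0.31 over 26. Against all features the sign turned in 2 settings for each: with an offset of 50 and without exosome array 1 for the first, and with no filter and with an additive line for the second. No member of any list was called.

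The exosome-to-cell difference was compared between AS and AS-Tspan8 in the same fit. Limma called 0 of 9434 features (0%) for the difference between the lines, and 199 (2.11%) had an unadjusted p under 0.05. In AS-Tspan8 alone 2643 features (28%) were called at an adjusted p under 0.05, which does not show that AS differs. The named genes of lowest p for the difference were Reg1a and Vcam1 in one direction and Mfsd4a and Iws1 in the other. None of the 4 was detected on an AS exosome array. Reg1a, a secreted pancreatic protein, read 107.1 in cells of AS against 4622 in those of AS-Tspan8, and Vcam1, an adhesion molecule, 98.3 and 3229, with exosome signals of 68.6 to 77.8 in both lines. Of the features of at least 1000 in AS cells, 1025 were detected on AS exosome array 1, beside 999 and 700 on the AS-Tspan8 exosome arrays. Of the 50 ribosomal genes among them those arrays detected 47 and 46, and of the 32 cell cycle genes 3 and 1.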

How the data were processed

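Total RNA of 12 rat samples was read on Illumina rat BeadChips with Cy3 as the only dye, per the labels. For each probe and array the deposited table gives an intensity before normalization and a p-value of detection, per the file headers; software and settings are not given in the sources used here. A second table of the authors' processed intensity values, method not stated, was used as an alternative. The depth of an array is its signal over background, and the number of arrays limits the precision.

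Of 22523 probes, 13793 had 1 gene symbol in the platform annotation (0 had several, 8730 none), and 13752 of them matched the reference gene table. Intensities of the 6 tumour cell and exosome arrays were background-corrected with normexp from the detection p-values (limma 3.58.1, R 4.3.3), given an offset of 16, quantile normalized and put on the log2 scale. Quantile normalization lifts dim signals of exosome arrays, so signals before normalization are given first. Features detected (p under 0.01) on 2 or more of the 6 arrays were kept, 1 probe per gene by highest mean. Limma's lmFit and eBayes with 4 group means gave the tests, adjusted by Benjamini-Hochberg over 9434 features (6741 named), called at adjusted p under 0.05. The cell array is assumed to vary like the exosome arrays.

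Genes were named by rule: up to 6 per direction of lowest p where fewer than 4 were called, the 8 with the highest bound detected only in exosomes or only in cells, per list the 2 of lowest p, Tspan8, and 2 per direction for the difference between lines. List members of high cell signal or known role, such as Pcna, Ftl1 and Akr1c12, were added after their values were seen. The members, lists and settings were chosen with earlier results of these data known. Replicate numbers were not read as pairs: deviations of same-numbered AS and AS-Tspan8 exosome arrays correlated at -0.412. Protein lengths were not analysed here.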

Additional observations from a re-analysis of the deposited data

Results flagged for a closer look

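For 4 named genes the 2 AS exosome arrays lay on one side of AS cells and the 2 AS-Tspan8 exosome arrays on the other side of AS-Tspan8 cells, after normalization. The difference between the lines was tested by limma, and none passed (adjusted p of 0.989 each). Terc had log2 differences from cells of 3.26 and 2.73 in AS and -0.579 and -0.655 in AS-Tspan8, a difference between lines of 3.61. It was detected on both AS exosome arrays and on neither AS-Tspan8 exosome array, where it read 67.4 and 64.1. Mfsd4a differed between lines by -2.64, Iws1 by -1.97 and Krt7 by -1.95. These last 3 genes were not detected on an AS exosome array, so their differences rest on signals at background. Their cell signals were 338 for Mfsd4a, 611.7 for Iws1 and 384.4 for Krt7 in AS and 112.8, 1120 and 127.9 in AS-Tspan8.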

How the results depend on the processing

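The count of calls depended on many settings, and the causes were not tested. Higher and lower calls in AS exosomes were 0 and 0 with the main settings, every probe, the replicate block, the crossed replicate block (added after seeing the data) and without AS exosome array 1 or AS-Tspan8 exosome array 1 or 2. They were 394 and 7970 with no scaling, 4637 and 484 when scaled to the 75th percentile, 97 and 10 with quantile normalization over the 1679 features detected on all 3 AS arrays, 437 and 992 with the authors' processed values, 152 and 1287 with an offset of 50, 189 and 1423 with no filter, 402 and 58 with only features detected on all 3 AS arrays, 322 and 4 with the 3 AS arrays alone, 1520 and 4218 with line as an additive covariate, and 584 and 2674 with a trend in eBayes. Leaving out one array gave 0 to 1259 higher and 0 to 2786 lower. The split of calls moved from 4.71% higher with no scaling to 90.5% higher at the 75th percentile, and the median of all features from -3.0 to 1.31 (main -0.70). The difference between lines had 4544 calls with no scaling, 130 at the 75th percentile and 0 in the other settings in which it was fitted. The share of features detected on both exosome arrays was 30.1% at a detection p under 0.05 and 3.08% under 0.001, and 20.5% to 35.5% with one exosome array.

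With the replicate block the smallest adjusted p was 0.228 and no call changed, and the negative correlation of same-numbered arrays (-0.412) led to the crossed block, which also made 0 calls.

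Of 82 named genes, 20 turned sign, relative to the median of all features, in at least 1 of 16 settings. With no scaling and, equally, at the 75th percentile these were Eif2s1 (0.42), Mrpl41 (0.55), Ndufa7 (0.13), Psma1 (1.07), Pkm (0.30), Stard4 (0.29), Ybx1 (0.60), Itga8 (0.94), Sgk1 (0.12), Ccn2 (0.94), Krt8 (1.52), Ramp2 (0.41), Fcer1g (1.05) and Smtn (0.83). With the additive covariate they were Krt8 (0.054), Krt7 (0.40), Fcer1g (0.036), Reg1a (-1.11), Vcam1 (-0.89), Mfsd4a (0.75) and Iws1 (0.36). Others were Tap1 with quantile normalization over features on all 3 arrays (-0.24), Krt8 with processed values (0.047) and with an offset of 50 (0.0032), and Reg1a and Vcam1 with no filter (-0.54 and -0.46). With one array left out, the range was -0.40 to 0.029 for Krt8, -0.46 to 0.065 for Fcer1g, -0.044 to 0.32 for Reg1a and -0.0094 to 0.49 for Vcam1. Protein length could not be run.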
